A study of Mus musculus with 17 samples.

Results

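The S100 family was examined in the distant tumors of mice whose tumor on the other flank had been frozen. The family consists of small calcium-binding proteins with a pair of EF-hand motifs, which mostly act as dimers and change shape when calcium binds. The members are 10 genes, chosen by name from the 21931 genes in the deposited table. They were S100a8 and S100a9, which myeloid cells make, and S100a1, S100a4, S100a6, S100a10, S100a11, S100a13, S100a16 and S100b, which tumor, stromal or glial cells make.

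MC38, a mouse colon cancer line whose cells the labels also call mesenchymal, was implanted under the skin of both flanks of wild-type C57BL/6J mice aged 6 to 8 weeks. The mice were randomized into a control group (9 tumors), whose labels name no other agent, and a cryoablation group (8 tumors). The text of the study gives these group sizes the other way round, and the labels were followed. In the cryoablation group, the tumor of one flank was frozen on day 7 in 2 cycles, each of 20 s according to the labels, while the methods of the study give a longer freezing time. The contralateral tumor was taken at day 5 after freezing for bulk RNA sequencing. The question was how the local treatment altered the transcripts of a tumor that had not been touched.

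Total counts ranged from 13524899 to 17898672 per tumor, with medians of 16048176 for control and 15130145 for cryoablation tumors. Levels are given as CPM, counts scaled to library size, after TMM normalization, which scales each library by a trimmed mean of its ratios to the others. A gene at 0 could have had up to 3 counts, or 0.168 to 0.222 CPM depending on the library, a limit of counting error only. Fold changes are log2 values, cryoablation over control, from edgeR's quasi-likelihood F test, with the standard error in parentheses. No gene of the 13005 tested reached an adjusted p under 0.05 (0.0% called), nor did any under DESeq2 or limma voom, while 639 had an unadjusted p under 0.05. A threshold of a log2 fold change beyond 1 in either direction with an unadjusted p under 0.05 is therefore used as a descriptive mark. It takes the limits of the study but reads the p without adjustment, while the methods of the study also name an adjusted p. The tumors of a group were taken as replicates from their labels, and p values measure the spread between these tumors. In bulk tumors, fewer cells of a type and less RNA per cell cannot be told apart. The labels call the cells colon cancer cells, and of 8 colon epithelium markers, 3 had counts in every tumor, namely Lgals4 (108 to 245 counts), Cdh1 (55 to 427) and Epcam (8 to 127). Krt8, Krt18, Krt20 and Vil1 were at 0 in some tumors, and Cdx2, the intestinal transcription factor, had 0 counts in all 17.

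In tissue, S100a8 and S100a9 form the heterodimer calprotectin, which is stored in neutrophils and monocytes, binds zinc and manganese, and signals as a danger molecule through Tlr4 and Ager (RAGE). S100a10 pairs with annexin A2 at the plasma membrane, where the complex binds plasminogen, and S100a11 pairs with annexin A1. S100a4 is known from fibroblasts and migrating tumor cells, and S100b from glia and Schwann cells.

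Of the 10 genes, 9 lie on chromosome 3. By the positions listed in the table, which differ for most genes from those of GENCODE M21 so that no build is named, S100a1 (ENSMUSG00000044080, minus strand) spans 90418341 to 90421699. S100a13 (ENSMUSG00000042312, plus strand) begins head to head with it, 42 bases further on, at 90421742. S100a16, S100a4, S100a6, S100a8 (ENSMUSG00000056054, 90576285 to 90577342, plus strand) and S100a9 (ENSMUSG00000056071, 90599939 to 90603028, minus strand) follow within the same cluster. S100a11 begins at 93427795 and S100a10 at 93462387 on the same chromosome, while S100b begins at 76089687 on chromosome 10. All are short, with listed lengths from 511 bases (S100a11) to 1617 bases (S100a16), at percentiles from 1.89% to 18.6% of gene length in the table.

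The promoters of the genes on which the results turn are shown to set the myeloid pair beside an abundant member. Windows of 300 bases, 250 before and 50 after the annotated start, were taken from RefSeq (GRCm38.p6) and are written 5′ to 3′ along the gene. Windows were found for 9 of the 10 members, with a pair of windows for S100a16. Capitals mark matches on either strand to TATAAA (the TATA box), GGGCGG (a GC box) or TGANTCA (an AP-1 motif).
S100a8, chr3:90668821-90669120, plus strand: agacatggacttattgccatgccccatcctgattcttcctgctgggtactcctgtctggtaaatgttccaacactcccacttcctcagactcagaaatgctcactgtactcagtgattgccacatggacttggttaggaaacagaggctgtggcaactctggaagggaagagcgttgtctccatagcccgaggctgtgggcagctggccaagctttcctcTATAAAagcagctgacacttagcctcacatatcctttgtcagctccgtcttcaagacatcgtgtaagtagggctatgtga
S100a9, chr3:90695672-90695971, minus strand: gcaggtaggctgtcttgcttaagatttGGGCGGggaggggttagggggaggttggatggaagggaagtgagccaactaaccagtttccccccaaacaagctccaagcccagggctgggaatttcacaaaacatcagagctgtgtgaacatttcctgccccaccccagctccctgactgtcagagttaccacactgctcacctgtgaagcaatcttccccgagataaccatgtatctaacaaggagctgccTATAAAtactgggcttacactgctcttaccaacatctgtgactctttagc
S100a11, chr3:93520246-93520545, plus strand: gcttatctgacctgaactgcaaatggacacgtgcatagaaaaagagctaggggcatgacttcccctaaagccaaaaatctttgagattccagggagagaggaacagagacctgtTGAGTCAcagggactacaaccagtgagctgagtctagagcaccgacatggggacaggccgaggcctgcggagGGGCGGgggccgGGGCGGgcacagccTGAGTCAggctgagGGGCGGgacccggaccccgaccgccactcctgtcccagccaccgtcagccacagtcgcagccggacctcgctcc
TATAAA was found in the windows of S100a8 (its first base 30 bases before the start), S100a9 (at the listed start itself) and S100a4 (31 bases before). It was found in 13.6% of all 32851 windows. S100a11 held GGGCGG at 3 places and TGANTCA at 2 places (136 and 38 bases before the start), against 35.7% and 7.81% of all windows with at least a single match. GGGCGG was also found in S100a9 and S100a16, TGANTCA in S100a16, and TTCNNNGAA (a STAT motif, in 8.3% of windows) in 0 of the 9 members. A match of letters is a description and does not show that a factor binds there.

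S100a1 and S100a13 share their promoter region. In the window of S100a1, capitals mark the 204 bases that also lie in the window of S100a13, read on the opposite strand.
S100a1, chr3:90514281-90514580, minus strand: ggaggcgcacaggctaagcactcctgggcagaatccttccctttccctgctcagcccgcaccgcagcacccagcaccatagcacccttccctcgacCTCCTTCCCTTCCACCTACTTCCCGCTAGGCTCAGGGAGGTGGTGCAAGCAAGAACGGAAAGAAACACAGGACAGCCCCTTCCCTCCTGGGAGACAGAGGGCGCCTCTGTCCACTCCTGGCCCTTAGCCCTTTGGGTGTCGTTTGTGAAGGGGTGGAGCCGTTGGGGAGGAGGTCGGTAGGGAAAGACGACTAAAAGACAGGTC

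The levels of the 10 genes, compared per kilobase of listed length, spanned a wide range. S100a11 stood highest at 1513 ± 1033 CPM per kb (SD, n = 17), rank 14 of all genes in the table, and was above the next gene in 17 of 17 tumors. S100a10 (976 ± 524 CPM per kb, SD, n = 17) and S100a6 (966 ± 680 CPM per kb, SD, n = 17) could not be ordered, since S100a10 was higher in 12 of 17 tumors and their order changed between the group means. These 3 genes together took 0.167% to 0.666% of all counts of a tumor.

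S100a13 (91.4 ± 81.1 CPM per kb, SD, n = 17), S100a1 (65.2 ± 37.8) and S100a16 (34.0 ± 21.4) followed, each above the next gene in 16 or 17 of 17 tumors. The myeloid pair was far lower. S100a9 reached 11.2 ± 13 CPM per kb (SD, n = 17; rank 4537) and S100a8 3.59 ± 3.42 CPM per kb (rank 8511), with S100a9 above S100a8 in 15 of 17 tumors. Calprotectin transcripts were thus rare in these tumors, at 9.5e-05% to 0.00372% of counts. At the bottom stood S100a4 at 1.44 ± 0.745 CPM per kb (SD, n = 17) and S100b at 0.298 ± 0.156 CPM per kb. FPKM medians gave the same order of the 10 genes.

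**Figure D1:**
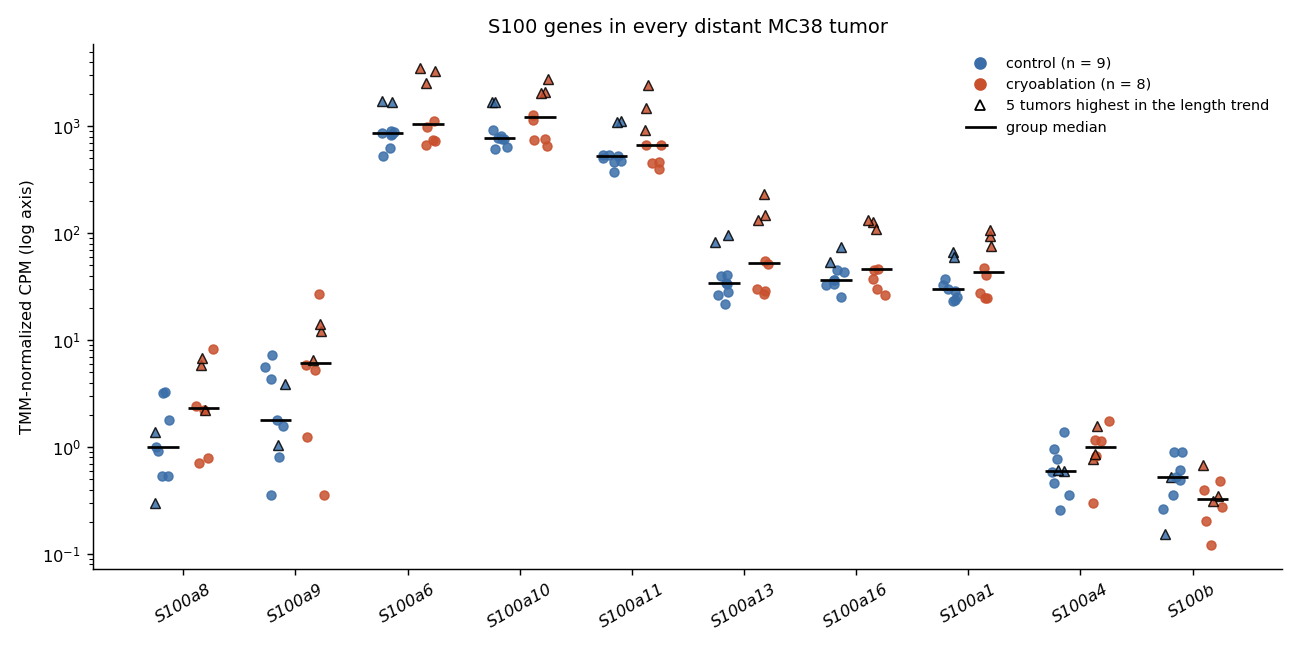
TMM-normalized CPM (log axis) of the 10 S100 genes in each tumor, with control tumors in blue, cryoablation tumors in red and black bars at the group medians. Triangles mark the 5 tumors in which short genes as a class stood highest, and in S100a6, S100a10, S100a11, S100a13, S100a16 and S100a1 they lie above the other 12 tumors.

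Of the 9 members tested, 2 passed this threshold, S100a8 and S100a9, both higher in the cryoablation group. Over all genes tested, 64 of 13005 passed (0.492%), 46 of them higher (0.354%) and 18 lower. An unadjusted p under 0.05 was found for 5 members, all of them higher, against 4.91% of all genes in either direction and 3.74% higher. All 9 log2 fold changes lay above 0, with a median of 0.71, where 48.0% of all genes lay above 0. Short genes in general stood higher in the cryoablation group. Among the 254 other genes tested of under 1000 bases, the median log2 fold change was 0.49, 89.0% lay above 0, 21.7% had an unadjusted p under 0.05 and 6.3% passed the threshold. The adjusted p was 0.728 for each of the 9 members (edgeR, Benjamini-Hochberg over 13005 genes).

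S100a8 lay between 0.299 and 3.24 CPM in the control tumors (median 1.0) and between 0.716 and 8.32 CPM in the cryoablation tumors (median 2.34). The groups overlapped, with the control median exceeded by 6 of 8 cryoablation tumors and the highest control tumor by 3. The means were 1.44 ± 1.11 CPM (SD, n = 9) and 3.67 ± 2.90 CPM (SD, n = 8), a log2 fold change of 1.34 (0.53) with an unadjusted edgeR p of 0.0205. The two-sided exact permutation test of log2 CPM over all 24310 splits of the tumors gave p = 0.0554, where the smallest possible value is 4.11e-05.

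S100a9, the other subunit of the complex, lay between 0.359 and 7.29 CPM in the control tumors (median 1.79) and between 0.358 and 27.1 CPM in the cryoablation tumors (median 6.15). Here 3 cryoablation tumors lay above every control tumor and 1, replicate 8, lay just below every control tumor. The means were 2.97 ± 2.42 CPM (SD, n = 9) and 9.07 ± 8.69 CPM (SD, n = 8), a log2 fold change of 1.61 (0.65) with an unadjusted edgeR p of 0.0232 and an exact permutation p of 0.127.

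The difference of the pair rested in part on cryoablation replicate 7, which held the highest counts of both genes, 138 of S100a8 and 449 of S100a9. Without this tumor the log2 fold changes were 1.04 for S100a8 and 1.11 for S100a9 in edgeR's fit, and neither had an unadjusted p under 0.05. With limma voom and sample quality weights they were 0.52 and 0.22, and neither passed. Counts of S100a8 were as low as 4 and those of S100a9 as low as 6, which limits the precision of single tumors.

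S100a8 and S100a9 moved together from tumor to tumor. The log2 CPM values, centred on the group means, correlated with r = 0.91 and rho = 0.90 over 17 tumors (both permutation p = 1e-05, the smallest that 100000 permutations can give, adjusted p = 2.5e-05 over 10 pairs). Leaving out control replicate 1 and cryoablation replicate 7, the tumors farthest from the median of S100a8, gave r = 0.91. Within the control group r was 0.84 and within the cryoablation group 0.96. The ratio of S100a9 to S100a8 per kilobase had a median of 2.84 and ranged from 0.665 to 4.65. It lay below 1 in control replicate 6 (9 counts of S100a8 and 6 of S100a9) and cryoablation replicate 8 (12 and 6 counts).

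Other genes of neutrophils were read beside the pair. Of 16 neutrophil markers, 10 could be tested, and 2 passed the threshold, both higher in the cryoablation group. They were Lcn2, which binds bacterial siderophores (log2 fold change 1.45, SE 0.53), and G0s2, an inhibitor of lipolysis (1.18, SE 0.48). Over all genes tested 0.492% passed, and 6.3% of the 254 genes under 1000 bases other than the members, a class that holds G0s2 (871 bases). Ltf, the lactoferrin of secondary granules, had 1.57 (SE 0.83) and did not pass. Csf3r, the G-CSF receptor, had the lowest value at -0.51 (SE 0.42), and the median of the list was 0.13. Ly6g, which defines mouse neutrophils, had at most 2 counts in any tumor. The summed level of the 16 genes ranged from 81.7 to 222 CPM in the control group and from 91.1 to 161 CPM in the cryoablation group. Neither call held in every setting. With single tumors left out, Lcn2 passed in 16 of 17 fits and G0s2 in all 17. Lcn2 also passed with the length offsets described with the abundant members (1.46) and without cryoablation replicates 2, 4 and 5 (1.38). Lcn2 had 0.90 without cryoablation replicate 7 and -0.33 under limma voom, and did not pass. G0s2 had 0.96 with the length offsets, 0.39 under voom and 0.88 without cryoablation replicates 2, 4 and 5, none of which passed.

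Csf3r ran from 3.76 to 44.1 CPM in the control tumors (median 8.88) and from 5.55 to 14.9 CPM in the cryoablation tumors (median 8.37), with its highest value in control replicate 4. Its correlation with S100a8 over 17 tumors was r = 0.51 and rho = 0.52 (permutation p = 0.0352 and 0.034, adjusted p = 0.0503 and 0.0486). It was 0.39 without the tumors farthest in S100a8. For S100a9 and Csf3r r was 0.44 and rho 0.46 (permutation p = 0.0738 and 0.0641). Within the 12 tumors in which short genes stood lower, described with the abundant members, the values were higher, at r = 0.75 for S100a8 (permutation p = 0.00452) and r = 0.75 for S100a9 (p = 0.00419, both adjusted p = 0.00646 over 10 pairs). S100a8 and Hbb-bs, a beta-globin gene of red cells, gave r = 0.25 (permutation p = 0.333), with 0.57 without control replicate 1 and cryoablation replicate 7 and -0.07 after the length trend was removed, so that no stable relation was seen.

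**Figure D2:**
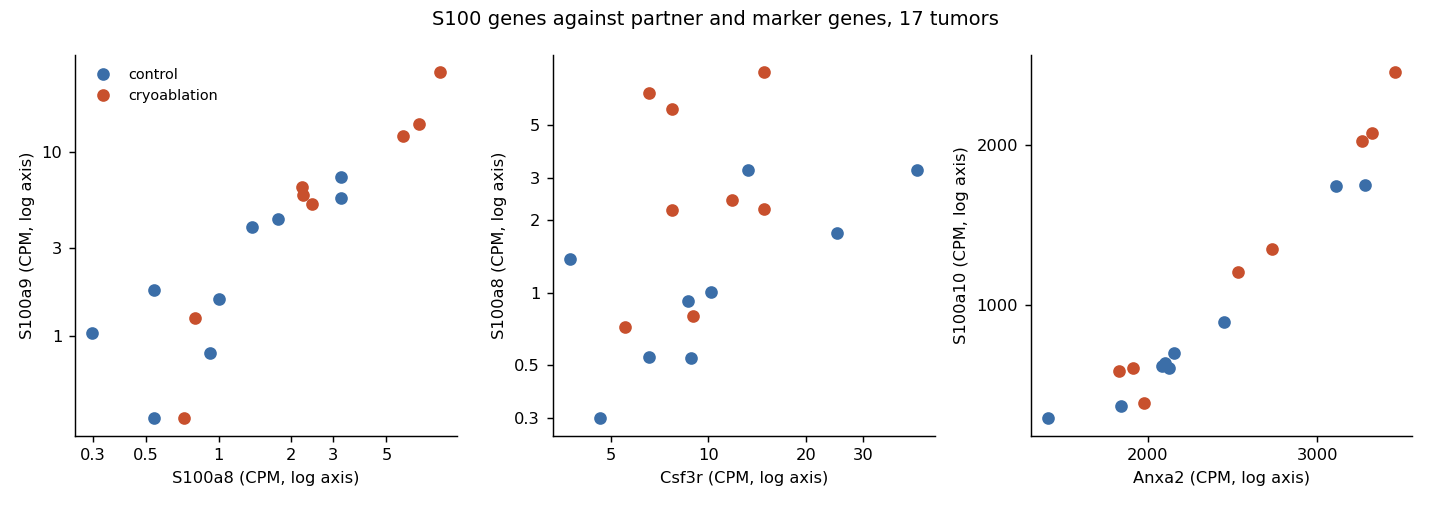
Each point is a tumor (blue control, red cryoablation) and all axes are CPM on a log scale. S100a9 climbs with S100a8 (r = 0.91) and S100a10 with Anxa2, while S100a8 against Csf3r is scattered, with the 3 cryoablation tumors highest in S100a8 at levels of Csf3r within the control range.

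By likeness across the 17 tumors (Pearson correlation of centred log2 CPM over genes with a mean of at least 10 counts), the genes closest to S100a9 were Saa3 (r = 0.91), an acute-phase serum amyloid, S100a8 itself, Lcn2 (0.88), Slpi (0.87), a secreted inhibitor of leukocyte proteases, and G0s2 (0.86). Those closest to S100a8 were Hdc (0.91), the histamine-forming enzyme, S100a9, Ccdc73 (0.88), Sod2 (0.86), the mitochondrial superoxide dismutase, and Saa3 (0.83). These are given as a description over 17 tumors, in each of which all genes share a library and its depth.

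Genes for receptors of calprotectin and for the NADPH oxidase, which S100a8 and S100a9 help to assemble, were read next. Of 10 genes tested, 0 passed the threshold and 0 had an unadjusted p under 0.05 in edgeR's test, with 6 above and 4 below 0. The values ran from -0.35 for Cybb, the catalytic subunit (SE 0.22), to 0.52 for its partner Cyba (SE 0.33). Tlr4 had -0.06 (SE 0.14) and Ager 0.09 (SE 0.28).

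The abundant members showed another pattern. S100a6, or calcyclin, lay between 532 and 1713 CPM in the control tumors (median 863) and between 666 and 3519 CPM in the cryoablation tumors (median 1058). The groups overlapped, and 3 cryoablation tumors, replicates 2, 4 and 5, lay above all control tumors. The means were 984 ± 421 CPM (SD, n = 9) and 1697 ± 1210 CPM (SD, n = 8), a log2 fold change of 0.79 (0.36) with an unadjusted edgeR p of 0.0447 and an exact permutation p of 0.166. Under limma voom with sample quality weights the log2 fold change of S100a6 was 0.32, with an unadjusted voom p of 0.147.

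S100a10, also called p11, lay between 611 and 1681 CPM (median 777) in the control tumors and between 652 and 2739 CPM (median 1213) in the cryoablation tumors, a log2 fold change of 0.57 (0.30) with p = 0.0737 by edgeR and 0.150 by exact permutation. S100a11, or calgizzarin, lay between 373 and 1113 CPM (median 529) and between 401 and 2437 CPM (median 671), a log2 fold change of 0.59 (0.35) with p = 0.107 by edgeR and 0.277 by exact permutation. For each of these genes the control median was exceeded in 5 of 8 cryoablation tumors, and the groups overlapped.

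The less abundant S100a13, which takes part in the release of Fgf1 outside the classical secretory route, lay between 21.8 and 97.1 CPM (median 34.0) in the control tumors and between 27.2 and 235 CPM (median 52.9) in the cryoablation tumors. Its log2 fold change of 0.98 (0.45) lay just short of the threshold (edgeR p = 0.0405, exact permutation p = 0.157). It passed in 7 of the 17 fits that left out a tumor, those without control replicates 1 or 5 or cryoablation replicates 1, 3, 6, 7 or 8. S100a16 lay between 25.3 and 73.5 CPM (median 36.6) and between 26.3 and 133 CPM (median 45.7), a log2 fold change of 0.71 (0.33) with p = 0.0440 by edgeR and 0.178 by exact permutation. S100a1, known from heart and skeletal muscle, lay between 23.4 and 66.2 CPM (median 30.02) and between 24.8 and 106 CPM (median 43.6), a log2 fold change of 0.60 (0.32) with p = 0.0772 by edgeR and 0.185 by exact permutation. In all 3 genes the groups overlapped. An unadjusted p under 0.05 was kept in 7 of the 17 fits that left out a tumor for each of S100a6, S100a13 and S100a16.

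The same 5 tumors were highest in all 6 of these genes. They were cryoablation replicates 2, 4 and 5 and control replicates 1 and 5. In S100a6 they lay between 1676 and 3519 CPM and the other 12 tumors between 532 and 1124 CPM. In S100a11 the ranges were 925 to 2437 CPM and 373 to 674 CPM, and in S100a13 82.5 to 235 CPM and 21.8 to 54.8 CPM. In S100a10, S100a16 and S100a1 the 5 tumors likewise did not overlap with the other 12. The share of all genes that separate these tumors in the same way was not counted, so the separation is not given as a trait of the S100 genes. The myeloid pair did not follow them. Of the 5 tumors highest in S100a8, 2 were among these 5, and of those highest in S100a9, 3 were.

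These 5 tumors were also those in which short genes as a class stood highest. A trend over gene length was fitted in each tumor across the genes tested with a mean of at least 10 counts, the tested S100 members included. Its value at 700 bases was set against that at the median length of 4467 bases. This length trend was 1.21, 1.09 and 0.99 (log2) in cryoablation replicates 5, 4 and 2, and 0.44 and 0.33 in control replicates 5 and 1. In the other 12 tumors it ran from -0.58 to -0.04. Removing it lowered the spread within groups of S100a11 from 0.74 to 0.32 (SD of log2 CPM), of S100a1 from 0.71 to 0.29 and of S100a6 from 0.80 to 0.49. The spread of S100a8 was 1.15 before and 1.15 after, and that of S100a9 1.61 and 1.52.

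**Figure D3:**
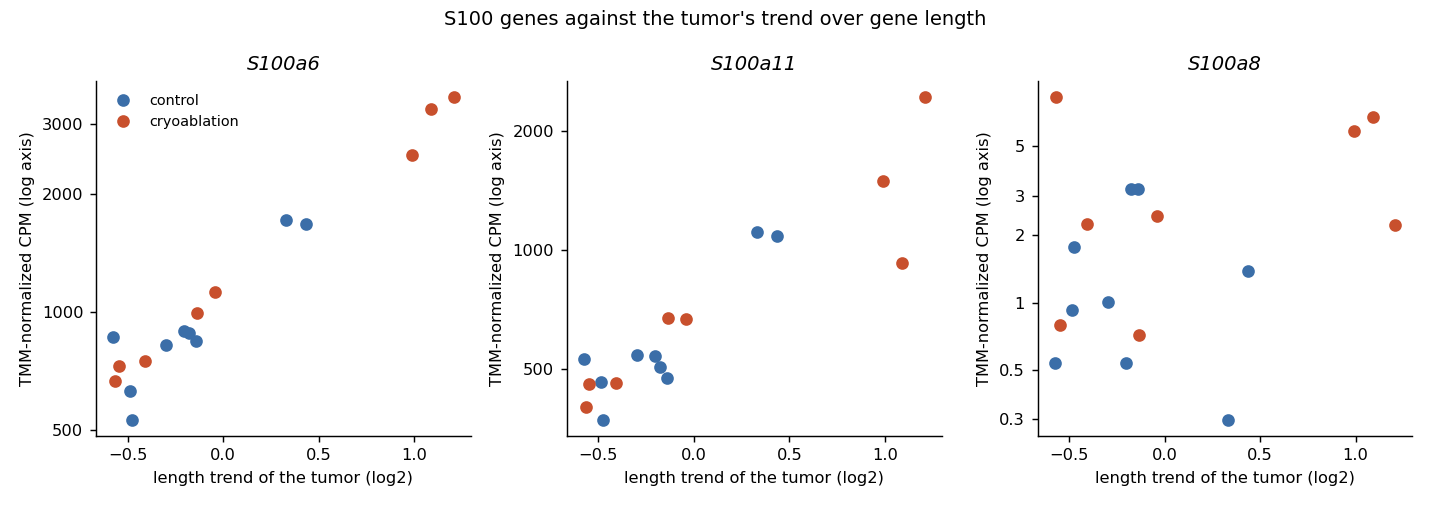
CPM (log axis) of S100a6, S100a11 and S100a8 against the length trend of each tumor (log2, at 700 bases minus at the median length), with control tumors in blue and cryoablation tumors in red. S100a6 and S100a11 lie highest in the 5 tumors with a trend above 0, of both groups, while S100a8 is scattered.

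With the length trend entered as offsets in edgeR's fit, the log2 fold changes of the abundant members were smaller. They were 0.44 for S100a6, 0.26 for S100a10, 0.02 for S100a11, 0.40 for S100a13, 0.42 for S100a16 and 0.13 for S100a1, and S100a16 alone among them kept an unadjusted p under 0.05. Those of the pair were 1.05 for S100a8, which no longer passed, and 1.41 for S100a9, which did. Without cryoablation replicates 2, 4 and 5, and with no offsets, the direction turned in all 6 abundant members, with log2 fold changes from -0.24 (S100a11) to -0.0765 (S100a10). Control replicates 1 and 5, which also stood high in these genes, stayed in this fit. The turn thus follows in part from which tumors were left out and is no test of the group difference. A fit without all 5 tumors was not made. In the same 14 tumors S100a8 had 0.99 and S100a9 1.40, and neither passed. Over all genes, the offsets left 39 genes past the threshold, 17 higher and 22 lower, beside the 46 higher and 18 lower without them. What set the length trend of a tumor was not tested.

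**Figure D4:**
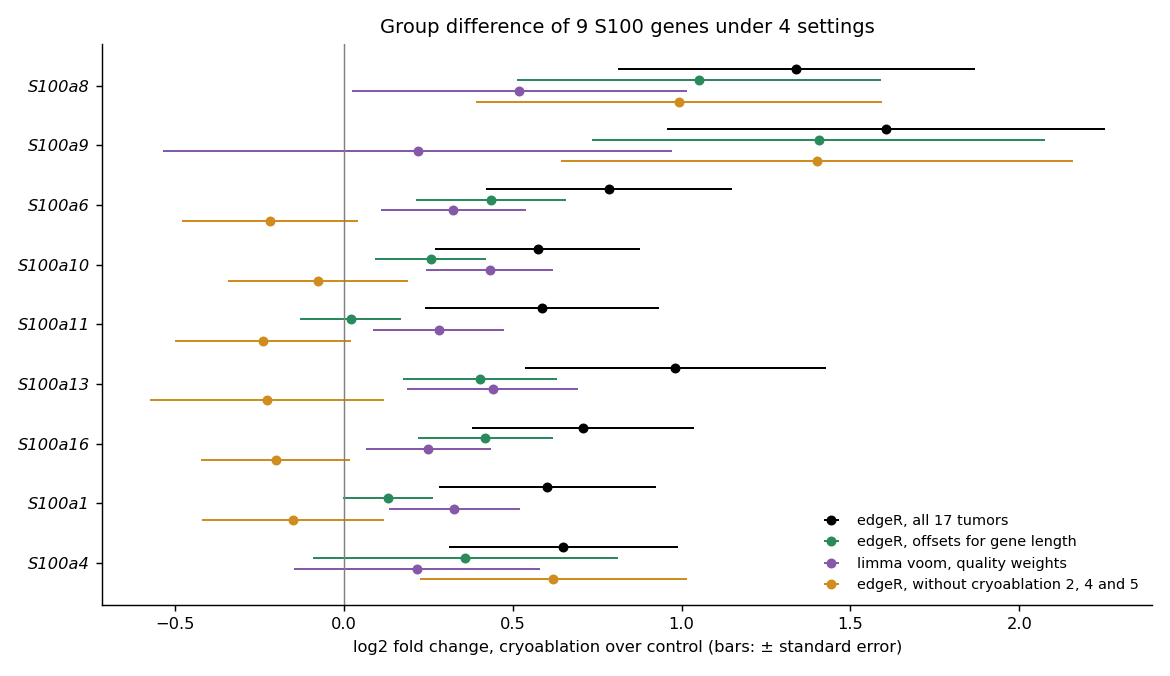
Log2 fold change (cryoablation over control, bars ± standard error) of the 9 S100 genes tested, under edgeR with all 17 tumors, with offsets for gene length, under limma voom with quality weights, and without cryoablation replicates 2, 4 and 5. The estimates of S100a8 and S100a9 lie above 0 in all 4 settings, while the 6 abundant members lie below 0 without the 3 tumors. That last setting keeps control replicates 1 and 5, which were also high in the abundant members.

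Since the 5 tumors stood apart, relations among the abundant members were read within the other 12. Over their 15 pairs r ran from 0.56 to 0.94 with a median of 0.88. Between these 6 genes and S100a8 or S100a9, r over the 12 pairs of genes ran from -0.59 to -0.05 with a median of -0.37. These values describe 12 tumors, in each of which all genes were read from the same library. Of these pairs, only the fixed pairs given below were tested. With all 17 tumors and the length trend removed, r among the abundant members ran from 0.16 (S100a11 and S100a16) to 0.94 with a median of 0.70, and r against the myeloid pair ran from -0.71 to -0.18. The head-to-head genes S100a1 and S100a13 gave r = 0.94 in the 12 tumors and 0.84 after the trend was removed.

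**Figure D5:**
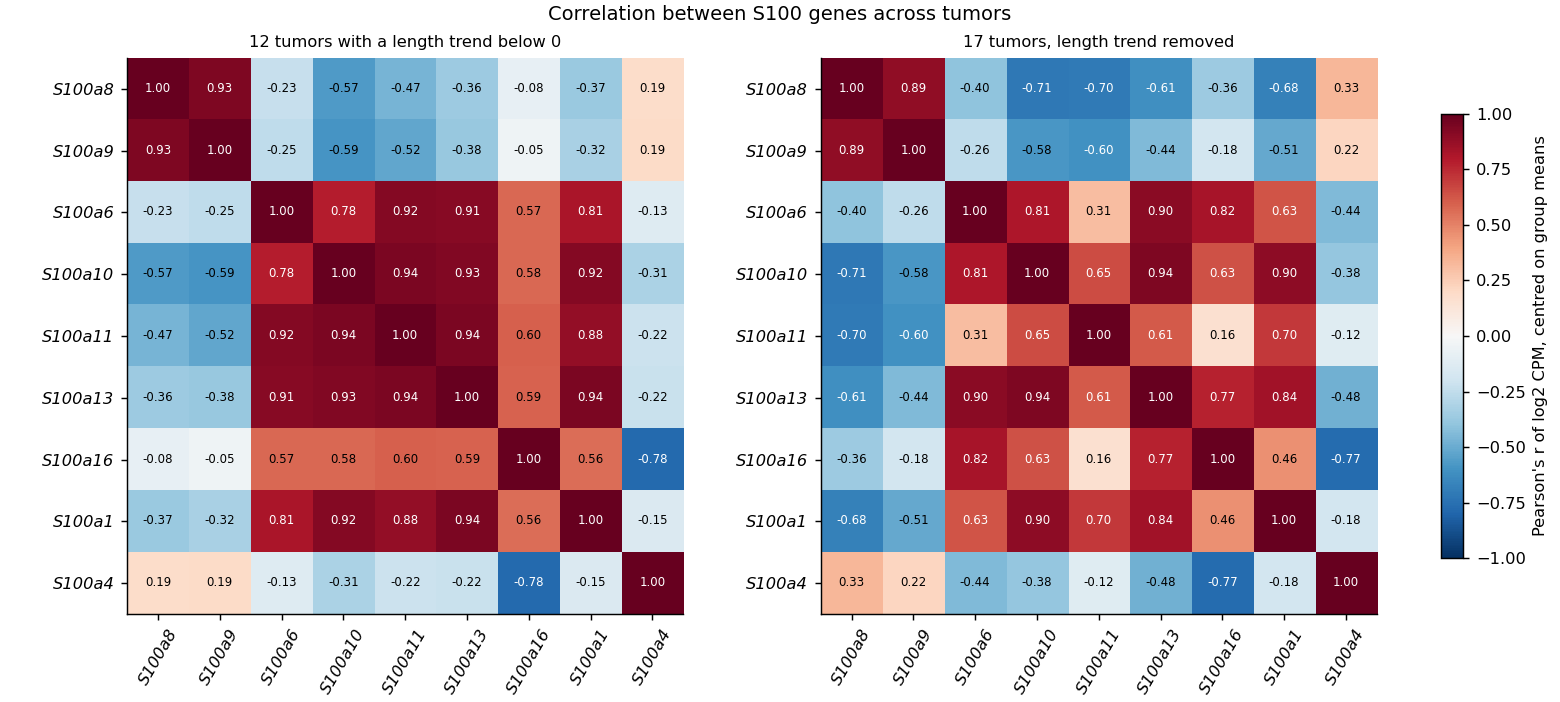
Pearson's r between 9 S100 genes (log2 CPM centred on group means), in the 12 tumors with a length trend below 0 (left) and in all 17 tumors after the trend was removed (right). The 6 abundant members form a block of positive values, S100a8 and S100a9 form a pair of their own (0.93 and 0.89), and the values between the block and the pair lie below 0.

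The annexin partners were as follows. Anxa2 lay between 1575 and 3364 CPM (median 2103) in the control tumors and between 1868 and 3616 CPM (median 2587) in the cryoablation tumors, a log2 fold change of 0.21 (SE 0.18). Within the 12 tumors S100a10 correlated with Anxa2 at r = 0.92 and rho = 0.93 (permutation p = 3e-05 and 2e-05), and at r = 0.86 without the tumors farthest in S100a10. S100a11 correlated with Anxa1 at r = 0.78 and rho = 0.78 (permutation p = 0.00375 and 0.00441), and at r = 0.52 without the tumors farthest in S100a11, so that part of this relation rested on 2 tumors. With all 17 tumors and the length trend removed, r was 0.92 for S100a10 and Anxa2 and 0.60 for S100a11 and Anxa1. Anxa1 had a log2 fold change of 0.25 (SE 0.15). The ratio of S100a10 to Anxa2 per kilobase ran from 1.01 to 2.33, with medians of 1.17 for control and 1.44 for cryoablation tumors, and was highest in cryoablation replicate 5.

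Of the other fixed pairs, S100a6 and S100a11 gave r = 0.92, S100a10 and S100a11 r = 0.94, and S100a13 and S100a16 r = 0.59 in the 12 tumors (permutation p = 3e-05, 1e-05 and 0.0477, adjusted p = 7.5e-05, 7.5e-05 and 0.0596 over 10 pairs). With all 17 tumors and the length trend removed, r was 0.31 for S100a6 and S100a11, 0.65 for S100a10 and S100a11 and 0.77 for S100a13 and S100a16. For S100a13 and S100a16 r fell to 0.21 without the 2 tumors farthest in S100a13. Among 12 annexins and other partners of the S100 proteins, 11 were tested and 0 passed the threshold, with a median log2 fold change of -0.04. The lowest was Plau, the urokinase that activates plasminogen, at -0.58 (SE 0.23), the only one with an unadjusted p under 0.05, and the highest was Anxa1.

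The genes most like the abundant members were ranked over all 17 tumors, the 5 that stood apart included, and their r with the member in the other 12 ran from 0.90 to 0.99. For S100a10 they included Cavin3 (r = 0.99), a caveolar coat protein, Acbd6, Metrn and Mgst3. For S100a11 they were Mrps7, Lgals1, or galectin-1, Atp5c1, Raly and Nans. For S100a6 they included Mrps9, Aprt, Nsmce1 and Ube2s. S100a1 stood closest to Cavin3, S100a13 and Arl3, S100a13 to Eif3i, Plac9a and Pmm1, and S100a16 to Hsbp1 (0.99), Commd9 and Selenow (0.98). Some of these genes are short, such as Lgals1 (903 bases). Others are longer than the median of 4467 bases, namely Acbd6 (6453 bases), Mrps9 (5763), Ube2s (5141) and Nans (4581). Likeness to the abundant members was thus not confined to short genes.

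S100a4, also known as fibroblast-specific protein, was read at a very low level. Its counts ran from 4 to 29, with 0.259 to 1.37 CPM in the control tumors (median 0.597) and 0.298 to 1.75 CPM in the cryoablation tumors (median 1.0). The log2 fold change was 0.65 (0.34) with p = 0.0709 by edgeR and 0.0847 by exact permutation, and the control median was exceeded in 7 of 8 cryoablation tumors. Its position overlaps Gm42674 on the same strand by 2115 bases, and in GENCODE M21 302 of the 584 exon bases of S100a4 are shared with that gene. Gm42674 had 0 counts in all tumors. How the authors counted reads that fall on overlapping genes is not given in the sources used here, so the level of S100a4 is uncertain. Fibroblast genes were abundant in the same tumors, with a summed level of 10 markers from 5089 to 13426 CPM. S100a4 and Col1a1, a collagen of fibroblasts, gave r = -0.39 and rho = -0.38 (permutation p = 0.118 and 0.135, n = 17). The genes most like S100a4 were Elovl6 (r = 0.78), a fatty acid elongase, Phf21b, Efr3b, Pthlh and Kantr.

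S100b had 2 to 15 counts per tumor and did not pass edgeR's filter on low counts. It lay between 0.153 and 0.906 CPM in the control tumors (median 0.520) and between 0.121 and 0.675 CPM in the cryoablation tumors (median 0.328). The difference of mean log2 CPM was -0.42 (exact permutation p = 0.150), the only one below 0 among the 10 members, and 1 of 8 cryoablation tumors exceeded the control median. S100b overlaps Dip2a on the opposite strand, where no exon base is shared. Of 7 Schwann cell markers 6 were tested, 0 passed the threshold, and the median was -0.16.

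The table holds 7 more S100 genes. Of these 3 were tested, and 0 passed the threshold. The log2 fold changes were 0.93 (SE 0.29) for S100a3, which alone had an unadjusted p under 0.05, 0.47 (SE 0.30) for S100a14 and 0.13 (SE 0.24) for S100a7a. S100a7l2 had 0 counts in every tumor, and S100a5, S100g and S100z had too few to be tested.

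Lists of other cells that the samples could hold gave the following values beside the S100 genes. Over all genes tested 0.492% passed the threshold, and 6.3% of the 254 genes under 1000 bases other than the members. That class holds the globin genes that passed (703 to 812 bases) and Cfd (922 bases). Erythroid genes passed in 3 of 4 tested, with a summed level from 6.16 to 74.7 CPM in the control group and from 25.1 to 175 CPM in the cryoablation group, and Slc4a1 had at most 2 counts. They were Hba-a1 (log2 fold change 1.75), Hbb-bs (1.54) and Hbb-bt (1.45), and without cryoablation replicates 2, 4 and 5 their values were 0.44, 0.52 and 0.97 and did not pass. Adipocyte genes passed in 2 of 7 tested, Cfd (1.61) and Retn (1.57), with sums from 28.8 to 161 CPM and from 20.3 to 278 CPM. Cfd did not pass without cryoablation replicate 2 or without replicate 5, and Retn passed in 6 of the 17 fits that left out a tumor. Cfd and Retn had 1.098 and 1.24 with length offsets, 0.05 and -0.60 under voom, and 0.70 and 0.71 without cryoablation replicates 2, 4 and 5, and passed in none of these. The 3 globin genes passed with length offsets (1.26, 1.11 and 1.14) and under voom (1.35, 1.65 and 2.03). Of the other lists 0 genes passed, with median log2 fold changes of -0.31 for monocytes and macrophages (13 tested), -0.29 for T cells (5), 0.56 for epidermis (4), -0.25 for skeletal muscle (4), -0.07 for fibroblasts (10), -0.22 for endothelium (6) and 0.65 for colon epithelium (5). An unadjusted p under 0.05 was found for 1 gene each of the monocyte and macrophage, epidermis and Schwann cell lists. Cryoablation replicate 5, highest in the summed S100 genes, was also highest in the sums of the erythroid, epidermis, monocyte and macrophage, and colon epithelium lists. The part of these cells in the S100 values was not tested.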

How the data were processed

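Bulk RNA sequencing of 17 distant MC38 tumors (SMARTER mRNA-Seq library kit per the labels) was analysed. The authors deposited a raw read count of each gene and tumor, which was used here, and FPKM, which equal the count divided by listed gene length and total count for all 372827 values (relative tolerance 1e-06). The FPKM were used for the order of levels only. The submitters' processing notes name GRCm38 and mm10, but 512 of 21827 shared genes have the same positions in GENCODE M21. The aligner and counter are not given in the sources used here.

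Groups came from the labels. The members and gene lists were chosen with earlier results of these data known. Counts were fitted with edgeR 4.0.16 in R 4.3.3 (TMM, filterByExpr, quasi-likelihood F test, design of group alone, Benjamini-Hochberg adjustment over 13005 genes). The test was tested on simulated data. Log2 CPM (prior count 2), centred on group means for correlations, was used for two-sided exact permutation tests (scipy 1.17.1) and correlations (100000 permutations, 10 fixed pairs). Length trends were natural splines with 4 degrees of freedom.

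Genes named were the members, the genes of the lists past the threshold or lowest and highest, the genes of the pairs, and the 3 or 5 most alike genes, of which some are not reported here. Tlr4, Ager, the colon epithelium markers and further S100 genes were added after their values were seen, as was the reading within 12 tumors. Alternatives were DESeq2 1.42.0, limma 3.58.1 voom, upper-quartile normalization, other filters, a replicate block, length offsets and leaving out tumors. The authors' own columns of annotation were not used.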

Additional observations from a re-analysis of the deposited data

How the results depend on the processing

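The direction of S100a8 and S100a9 was kept under each alternative. They passed the threshold under DESeq2, upper-quartile normalization and both other filters, but S100a8 did not with length offsets (1.05), with voom (0.52), without cryoablation replicates 2, 4 and 5 (0.99) or without these and with offsets (1.25), nor did S100a9 with voom (0.22) or without the 3 tumors (1.40). With offsets and without the 3 tumors S100a9 passed (1.74). The settings without the 3 tumors were chosen after seeing the data, and they keep control replicates 1 and 5, which were also high in the abundant members. There the log2 fold changes were -0.15 for S100a1, -0.22 for S100a6, -0.0765 for S100a10, -0.24 for S100a11, -0.23 for S100a13 and -0.20 for S100a16. With offsets as well they were -0.0532 for S100a6, -0.00786 for S100a11 and -0.0672 for S100a16, while S100a1 (0.0519), S100a10 and S100a13 did not turn. Without offsets, the differences of mean log2 CPM were -0.0931, -0.14, -0.0197, -0.16, -0.11 and -0.16 in the same order of the 6 genes. The cause was not tested.

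With single tumors left out, the log2 fold change ranged from 1.04 to 1.58 for S100a8, from 1.11 to 1.89 for S100a9, both lowest without cryoablation replicate 7, and from 0.59 to 1.21 for S100a13. The permutation differences ranged from 0.95 to 1.42 for S100a8 (p under 0.05 in 4 of 17), from 0.93 to 1.76 for S100a9 (1 of 17), from 0.45 to 0.76 for S100a4 (2 of 17) and from -0.56 to -0.30 for S100b (1 of 17).

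Genes past the threshold numbered 64, and 432 with no filter on low counts, 33 with the replicate block (55 in the same 16 tumors with no block), 39 with length offsets, 79 with voom (10 higher and 69 lower), and 34 (without cryoablation replicate 5) to 165 (without cryoablation replicate 3) with single tumors left out. An adjusted p under 0.05 was found for 0 genes in each fit, beside unadjusted p under 0.05 for 639 in edgeR, 881 in DESeq2 and 1312 in voom.

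Control and cryoablation tumors share replicate numbers, but same-numbered tumors correlated from -0.52 to 0.59 over 8 pairs, and 2 of the 8 numbers matched their own best, so they were taken to share a number only. With the numbers 1 to 8 as a replicate block, S100a8 had 1.11 and S100a9 1.34, both past the threshold, beside 1.22 and 1.52 in the same 16 tumors with no block. Depth limits S100a4 and S100b most, at 4 to 29 and 2 to 15 counts per tumor.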
